A study of Homo sapiens
Mus musculus and Homo sapiens with 21 samples.

Results

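The genes examined here encode the proteins of the cytosolic ribosome, read separately in human cancer cells and in the mouse tissue around them. They were chosen by symbol alone: RPL or RPS followed by a number with or without a final A, together with RPLP0, RPLP1, RPLP2 and RPSA, and the same pattern in mouse spelling. The rule found 76 of the 34058 human genes, 46 of the large and 30 of the small subunit, and 75 of the 33043 mouse genes, 46 of the large and 29 of the small subunit. Human RPS4X, FAU and GNB2L1 and the paralogs named L or L1 also belong to or resemble the ribosome but fall outside the pattern. Mouse Rps3a1 falls outside it as well, so human RPS3A has no mouse counterpart here.

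The ribosome has a large subunit, which joins amino acids, and a small subunit, which reads the mRNA. Each ribosomal protein is needed in about equal number, and most of the genes are among the most highly transcribed in growing cells. Many of their mRNAs begin with a run of pyrimidines, the 5' terminal oligopyrimidine tract, through which mTOR signalling and LARP1 control their translation and stability. RPL5 and RPL11, which travel with 5S rRNA, can bind MDM2 and so link ribosome assembly to p53.

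The cancer cells were H2030-BrM3, a brain-metastatic derivative of the H2030 lung adenocarcinoma line, so 1 line stands for all cancer cells. It was sequenced as a monolayer culture (2D, 3 libraries), as tumours grown under the skin after injection with Matrigel (SQ, 4 libraries), and as brain metastases after injection into the heart, in forebrain (FBMet, 3 libraries) and in hindbrain (HBMet, 3 libraries). Mouse reads were compared between forebrain without tumours (FB, 4 libraries), hindbrain without tumours (HB, 4 libraries), FBMet and HBMet. All mice were athymic nu/nu animals, which lack most T cells, and injected mice were 5 to 6 weeks old at injection. The labels call FB and HB free of tumours but list the human line for them too, and do not say whether those mice were injected. Tumours were dissected with the surrounding stroma and frozen, and total RNA was sequenced. The labels do not say whether libraries of a group came from separate cultures or animals, so p-values measure only the spread between these samples.

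Each library was split by organism: human reads numbered 27253282 to 49599168 in 2D and SQ and 3579907 to 6897852 in the metastases, and mouse reads numbered 17747167 to 23034782 in tumour-free brain and 52358082 to 86139353 in the metastases. Tumour-free brain held 3325 to 5753 reads assigned to human genes, and whether a few cancer cells were among their source was not tested. Taken as background, such reads predict counts that came, for any member in the metastases, to at most 0.185% of its human reads. The 2D culture held 7297 to 16524 reads assigned to mouse genes. Taken as background in the same way, those predict at most 0.0242% of the mouse reads of any member in the metastases. The region labels matched their markers: the summed hindbrain markers Hoxb3, Hoxb5, En2, Cbln1 and Pcp2 were 302 to 814 in HB against 18.1 to 22.8 in FB. The summed epithelial keratins and EPCAM were 331 to 367 in 2D, 777 to 944 in SQ and 1545 to 2177 in the metastases. Human PTPRC, a leukocyte marker, was at 0 to 0.0358 in all of them. Human markers of some other cell types were not absent. The fibroblast markers COL1A1 and PDGFRB summed to 21.25 to 22.54 in 2D, 160 to 203 in SQ and 77.8 to 122 in the metastases. The neuron markers SNAP25 and RBFOX3 summed to 0.508 to 1.11 in 2D, 0.954 to 1.14 in SQ and 2.69 to 9.065 in the metastases. The source of these signals was not tested. Levels are RPKM (reads per kilobase of gene, scaled by library size) rescaled so that the genes of 1 organism sum to 1000000 in each library.

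The start of the transcript is what most of these genes share beyond their product. In GENCODE release 44 on hg38, 58 of the 76 human members (76.32%) had at the first annotated base a C followed by at least 4 bases that were each C or T on the coding strand, against 919 of 20046 protein-coding genes (4.58%). Allowing such a tract to begin within 5 bases on either side of the annotated start gave 66 members (86.84%) and 4382 coding genes (21.86%). The start regions of 6 members named in the results below are shown. Each runs 5' to 3' from 40 bases before the annotated start to 15 bases of transcript, with the tract in capitals.
RPS6, chr9:19380222-19380276, minus strand: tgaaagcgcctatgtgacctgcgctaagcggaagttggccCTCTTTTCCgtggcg
RPL12, chr9:127451392-127451446, minus strand: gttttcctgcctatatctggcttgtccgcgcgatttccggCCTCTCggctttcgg
RPL3, chr22:39319609-39319663, minus strand: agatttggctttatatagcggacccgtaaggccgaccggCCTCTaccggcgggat
RPSA, chr3:39406680-39406734, plus strand: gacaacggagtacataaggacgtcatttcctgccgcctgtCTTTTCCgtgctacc
RPL36A, chrX:101390971-101391025, plus strand: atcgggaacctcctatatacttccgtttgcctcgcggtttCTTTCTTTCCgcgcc
RPS26, chr12:56041878-56041932, plus strand: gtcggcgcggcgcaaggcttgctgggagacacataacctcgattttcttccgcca
In RPS6, RPL12, RPSA and RPL36A the tract begins at the annotated start, in RPL3 it begins 1 base before it, and in RPS26 no such tract lies within 5 bases of the annotated start used. A tract is a match of letters, and the starts used by these cells were not measured.

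Ribosomal protein genes took between 6.00% and 7.69% of the human signal in every cancer library. The members summed to 7.42% ± 0.32 (SD, n = 3) of human RPKM in 2D, 6.51% ± 0.409 (SD, n = 4) in SQ, 6.75% ± 0.339 (SD, n = 3) in FBMet and 6.86% ± 0.412 (SD, n = 3) in HBMet. By library the share was 7.69%, 7.50% and 7.06% in 2D, 6.42%, 6.00%, 6.66% and 6.97% in SQ, 7.14%, 6.59% and 6.52% in FBMet and 7.29%, 6.81% and 6.47% in HBMet. Each 2D library lay above every SQ library, while SQ and the metastases overlapped. The share of mitochondrially encoded genes was 8.76% to 9.59% in 2D, 14.9% to 18.1% in SQ and 9.68% to 12.1% in the metastases. Relative to nuclear genes alone the member shares were 8.16% in 2D, 7.80% in SQ, 7.55% in FBMet and 7.71% in HBMet, and 2D and SQ overlapped (7.81% to 8.43% against 7.34% to 8.40%). In bulk samples such as these, fewer cells of a type and less RNA per cell cannot be told apart.

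**Figure D1:**
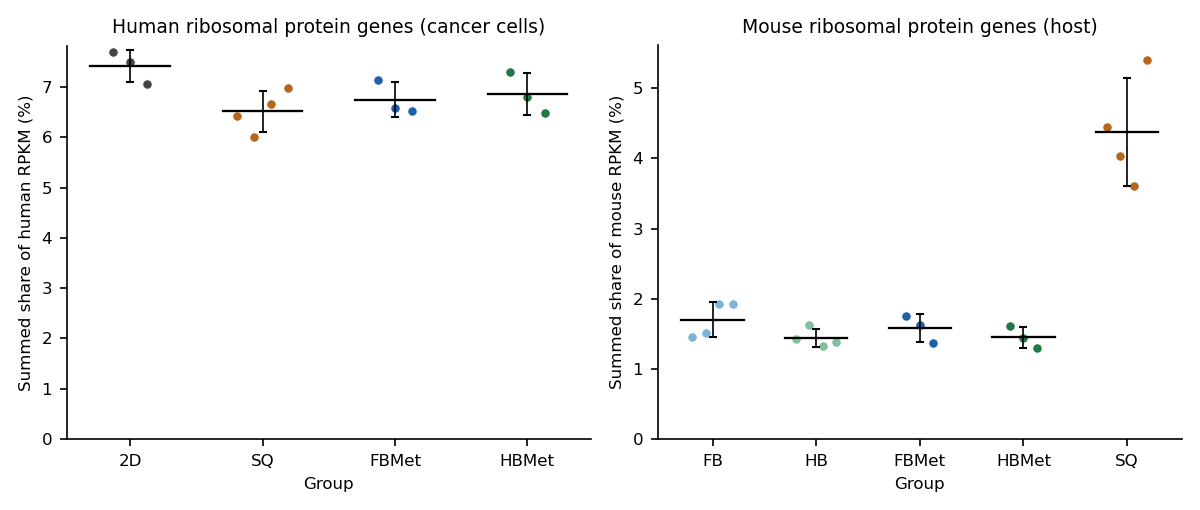
Summed share of ribosomal protein genes (percent of rescaled RPKM of that organism) in each library, human genes on the left and mouse genes on the right; points are libraries, bars are means and error bars SD. Human shares lie between 6.00% and 7.69%, mouse shares in brain between 1.30% and 1.92%, and those of the mouse cells in subcutaneous tumours between 3.61% and 5.40%.

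Levels of single members spanned a wide range. RPL4, which lines the peptide exit tunnel, had the highest level (mean of group means 3456), followed by RPL37 (2728), RPL8 (2601), RPL19 (2493) and RPL3 (2394), a protein near the peptidyl transferase centre. The lowest were RPL17 (11.1), RPL36A (14.6), RPS10 (58.5), RPS26 (58.8) and RPL39 (90.0), the last a very small protein of the exit tunnel. In the annotation RPL17, RPS10 and RPL36A each share exon bases with a readthrough gene (RPL17-C18orf32, RPS10-NUDT3 and RPL36A-HNRNPH2). Exons of any other gene on the same strand, readthrough genes included, cover 96.91%, 84.01% and 43.76% of their canonical exon bases. RPS26 and RPL39 share none with another gene on that strand. The 76 members also have 1565 annotated pseudogenes, a median of 13.5 each, with 133 for RPL21 and 74 for RPSA. How the authors' counting treated shared exons and near-identical copies is not given in the sources used here, and their part in these levels was not tested, so levels and differences of RPL17, RPS10 and RPL36A are uncertain. From group to group most members moved little: the highest group mean exceeded the lowest by a median of 1.20 times, from 1.03 to 1.83 times. The highest mean was in 2D for 40 members, in HBMet for 20, in FBMet for 10 and in SQ for 6.

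Subcutaneous tumours were compared with the monolayer culture to see how growth in an animal changed these genes. In SQ, 33 of the 76 members fell and 3 rose at an adjusted p under 0.05 (limma on log2(level + 1), Benjamini-Hochberg over 14557 genes), where 30.9% of all genes tested fell and 21.5% rose (52.4% in either direction). The median log2 difference was -0.16 over the members against -0.05 over all genes. The members that fell came from both subunits, 19 of 46 of the large and 14 of 30 of the small. Relative to nuclear genes alone 14 members fell and 7 rose, with a median of -0.04. That scale raised the median of all genes to 0.06 and gave 4158 genes higher and 3296 lower, against 3136 and 4499 before. Without 2D replicate 1, 21 members fell.

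RPL12, part of the stalk base where elongation factors bind, fell most. Its level was 1722, 1545 and 1444 in 2D and 928, 888, 1077 and 1122 in SQ, a log2 difference of -0.65 ± 0.09 (SE, limma adjusted p = 2.08e-05). All SQ libraries lay below all 2D libraries. RPS6, the small-subunit protein phosphorylated by S6 kinase downstream of mTOR, was at 1139, 1144 and 1103 in 2D and 778, 727, 741 and 772 in SQ (log2 difference -0.58 ± 0.04, adjusted p = 1.35e-07). The gap between the groups was several times the spread within either. RPL3 stood at 3159, 3066 and 2924 in 2D and 2138, 1934, 2126 and 2225 in SQ (-0.54 ± 0.06, adjusted p = 3.55e-06). RPL8, another protein of the peptidyl transferase region, averaged 3166 ± 115 (SD, n = 3) in 2D and 2363 ± 114 (SD, n = 4) in SQ. RPS25 (log2 difference -0.40) and RPL39 (-0.46) also fell. The fall of RPL39 did not pass relative to nuclear genes (-0.34, adjusted p = 0.0564).

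The stalk proteins and the 5S particle followed the same direction by smaller amounts. RPLP0, which anchors the stalk, fell by 0.29 on the log2 scale, RPLP1 by 0.21 and RPLP2 by 0.20. RPLP1 and RPLP2 did not pass relative to nuclear genes (log2 differences -0.09 and -0.08), under median-of-ratios scaling (-0.15 each) or without 2D replicate 2, and RPLP1 did not pass without SQ replicate 2 or 2D replicate 1. RPL5 fell by 0.31, whereas RPL11 differed by -0.14 and did not pass on the main scale (adjusted p = 0.0695). RPL11 did pass in the fit of those groups alone, with voom, without SQ replicate 4 and relative to genes other than the members. RPS19, mutated in Diamond-Blackfan anaemia, fell by 0.25 and RPS27A, made as a fusion with ubiquitin, by 0.24, and neither passed relative to nuclear genes. The call of RPS27A was also lost under median-of-ratios scaling and without SQ replicate 2 or 2D replicate 1. RPL22 fell by 0.18, which did not pass on either of those scales or without 2D replicate 1 or 2. RPL10 (-0.20), RPL13A (-0.18), RPSA (0.01) and RPL41 (0.01) did not pass on the main scale.

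Only RPL36A, RPS26 and RPS16 rose in SQ. RPL36A was at 12.5, 10.3 and 11.0 in 2D and 17.3, 25.1, 20.1 and 19.7 in SQ, a log2 difference of 0.81 ± 0.17 (SE, limma adjusted p = 9.65e-04). RPS26, which contacts mRNA at the exit channel, averaged 43.0 ± 6.99 (SD, n = 3) in 2D and 57.2 ± 9.23 (SD, n = 4) in SQ, with overlapping libraries. Its call (log2 difference 0.40) was lost on leaving out SQ replicate 3 or 4 or 2D replicate 2 or 3. RPS16, of the small-subunit head, rose by 0.31 with no overlap (1185 to 1275 in 2D, 1416 to 1606 in SQ).

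Metastases in brain were compared with the culture for the same purpose. In brain 22 members fell and 6 rose, where 21.0% of all genes tested fell and 21.9% rose (42.9% in either direction). The members' median was -0.07, against 0.01 over all genes. Relative to nuclear genes the counts were 20 and 7, and 14 fell without 2D replicate 2, while 3 rose without 2D replicate 3. The small subunit had 11 of 30 members lower and 5 higher, the large subunit 11 of 46 lower and 1 higher.

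RPS20, a small-subunit protein, fell most. It stood at 1192, 1216 and 1122 in 2D, 891, 760 and 742 in FBMet and 848, 814 and 832 in HBMet (log2 difference -0.53 ± 0.06, SE, limma adjusted p = 4.07e-06). No metastasis library reached the culture. RPL12 (-0.49), RPS12 (-0.48), RPL3 (-0.47), RPL11 (-0.43), RPS27A (-0.41), RPS6 (-0.38) and RPS19 (-0.33) fell in the same comparison, each with no overlap between brain and culture. RPLP2 fell by 0.19, which did not pass without 2D replicate 2, and RPL5 by 0.15, which did not pass without 2D replicate 1 or 2 or FBMet replicate 2. RPLP0 (-0.05), RPLP1 (0.03), RPL13A (0.04), RPL10 (-0.08), RPL22 (-0.11), RPL41 (0.07) and RPL39 (-0.30) did not pass on the main scale. RPL39 did pass without FBMet replicate 1 (-0.38), under median-of-ratios scaling (-0.32) and with voom on recovered reads (-0.32).

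Among the 6 that rose in brain were RPS26, RPS27, RPSA, RPL9 and RPS16. RPS26 was at 51.0, 39.9 and 38.0 in 2D, 63.8, 65.3 and 52.4 in FBMet and 81.7, 81.0 and 60.4 in HBMet (log2 difference 0.63 ± 0.13, SE, limma adjusted p = 0.00143). Every metastasis library lay above every culture library. RPSA, which is also known as the laminin receptor, was at 381, 335 and 328 in 2D, 469, 427 and 400 in FBMet and 461, 422 and 421 in HBMet (0.31 ± 0.08, adjusted p = 0.00404), again without overlap. RPS27 rose by 0.37, RPL9 by 0.25, and RPS16 by 0.21. The calls of RPS27 and RPL9 were lost without 2D replicate 2 or 3, and that of RPS16 without 2D replicate 3. That of RPL9 was also lost without FBMet replicate 1 or HBMet replicate 1 or 2, and under median-of-ratios scaling.

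**Figure D2:**
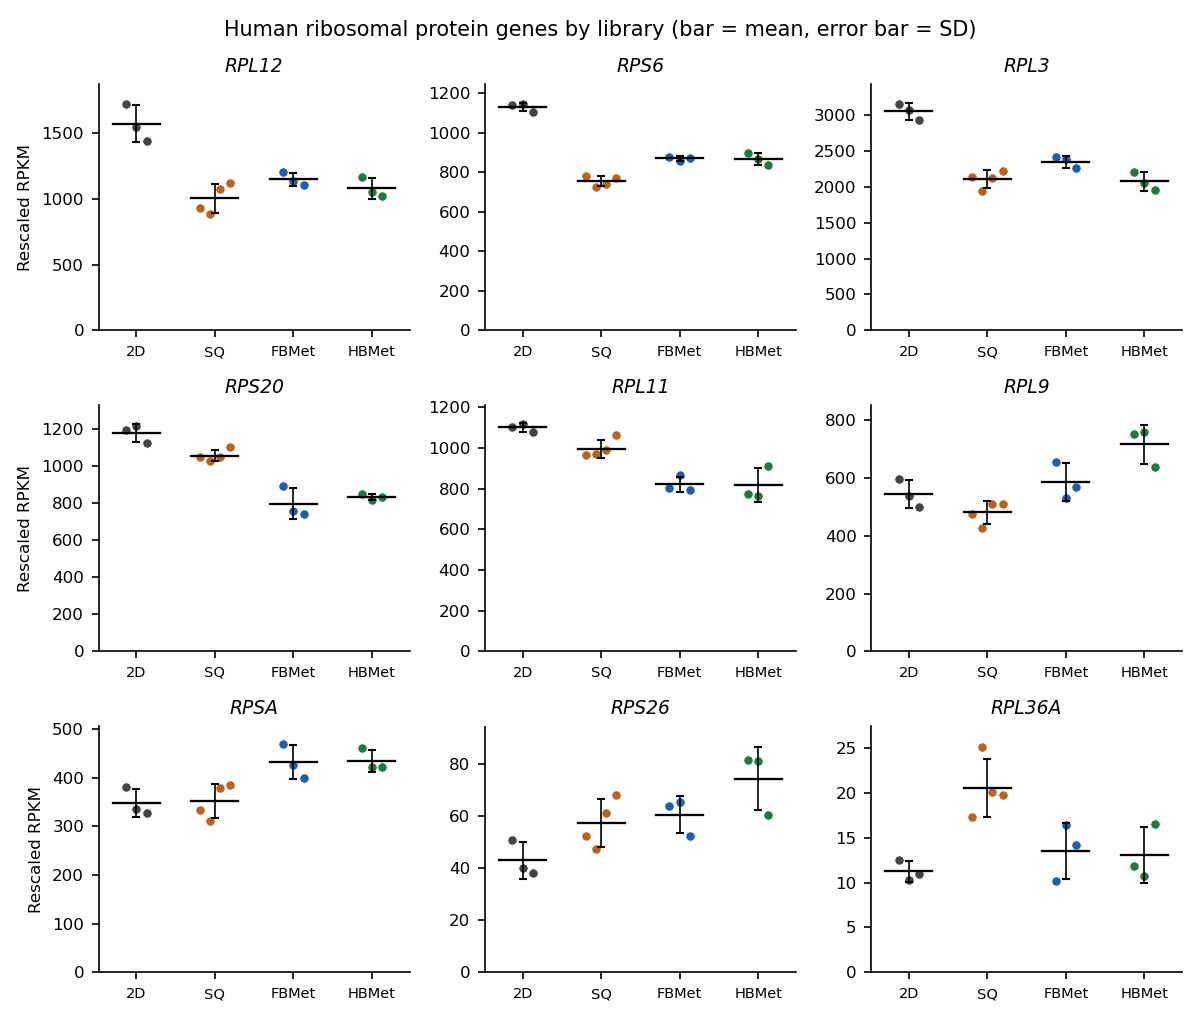
Rescaled RPKM of 9 human ribosomal protein genes in each library of 2D, SQ, FBMet and HBMet; points are libraries, bars are means and error bars SD. RPL12, RPS6 and RPL3 were lower in SQ and brain than in 2D, RPS20 and RPL11 were lowest in brain, RPL9 and RPSA had their highest means in brain, and RPL36A was highest in SQ (17.3 to 25.1).

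The same cells growing in brain and under the skin were then compared, which sets 1 tumour site against another. In brain 20 members were higher and 8 lower than in SQ, where 31.2% of all genes tested were higher and 18.8% lower (50.0% in either direction). The median was 0.07 for the members and 0.05 for all genes. This balance depended on the scale: relative to nuclear genes 11 members were higher and 18 lower (median -0.02), and with median-of-ratios scaling 10 were higher and 16 lower (median -0.01), so no direction is given for the family as a whole. Nuclear scaling gave 3478 genes higher and 3733 lower over the whole table, against 4537 and 2739 before, and median-of-ratios scaling 3549 and 3614. Without SQ replicate 2, 13 members were higher. Without SQ replicate 4, 4 were lower, and without SQ replicate 1 or 3 or FBMet replicate 3, 5 were lower.

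RPL9, a large-subunit protein near the stalk base, was the most increased member. Its level was 476, 428, 510 and 512 in SQ, 658, 530 and 571 in FBMet and 753, 761 and 639 in HBMet (log2 difference 0.43 ± 0.08, SE, limma adjusted p = 3.82e-04). The metastasis libraries all lay above the SQ libraries. RPS3A (0.41), RPL14 (0.33), RPSA (0.30), RPL26 (0.29) and RPS2 (0.28) followed. RPL14 averaged 675 ± 24.0 (SD, n = 6) in brain and 537 ± 32.0 (SD, n = 4) in SQ with no overlap. The call of RPS2 was lost relative to nuclear genes (0.18), under median-of-ratios scaling (0.19), with no filter on low values (0.28) and without SQ replicate 2 (0.21). Of the stalk proteins RPLP0 rose by 0.24 and RPLP1 by 0.23, while RPLP2 differed by 0.02 and did not pass. RPS6 rose by 0.20, RPL13A by 0.22 and RPL5 by 0.16, the last pair not passing relative to nuclear genes or under median-of-ratios scaling. RPL39 (0.17), RPL10 (0.12), RPL22 (0.08), RPL3 (0.07) and RPL41 (0.06) did not pass.

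Lower in brain than in SQ were RPL36A (-0.60), RPL17 (-0.40), RPS20 (-0.38), RPL11 (-0.28), RPS12 (-0.19), RPL34 (-0.18) and RPS27A (-0.17), besides RPL35A, named only to complete the count (-0.14). RPL11 was at 965, 970, 991 and 1062 in SQ, 805, 866 and 796 in FBMet and 774, 765 and 913 in HBMet (limma adjusted p = 5.30e-04). Its partner RPL5 was higher in brain in the same comparison on the main scale. RPL5 did not pass relative to nuclear genes or under median-of-ratios scaling (0.07 each). RPL36A was at 10.2, 16.3 and 14.1 in FBMet and 11.8, 10.7 and 16.6 in HBMet, all below the SQ libraries. The call of RPS27A was lost without any 1 of FBMet replicates 2 and 3, HBMet replicates 2 and 3 and SQ replicates 1, 3 and 4. That of RPL34 was lost without FBMet replicate 2 or 3, HBMet replicate 2 or SQ replicate 3 or 4, that of RPL17 without FBMet replicate 3 or SQ replicate 1 or 3, and that of RPS12 without SQ replicate 4. RPS19 (-0.08) did not pass on the main scale. It was lower relative to nuclear genes (-0.17, limma adjusted p = 0.0151) and under median-of-ratios scaling (-0.16, limma adjusted p = 0.0222).

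The 3 contrasts share groups, so they are read side by side rather than as support for each other. RPS6 differed by -0.58 (SQ against 2D), -0.38 (brain against 2D) and 0.20 (brain against SQ), RPL3 by -0.54, -0.47 and 0.07, and RPS20 by -0.16, -0.53 and -0.38. Members with and without a tract at the annotated start were not tested against each other. Their median differences were -0.18, -0.07 and 0.07 in these 3 contrasts over the 58 members with one and -0.14, -0.06 and 0.09 over the other 18. From 2D to SQ 27 of the 58 fell and 6 of the 18, and from 2D to brain 19 of the 58 and 3 of the 18. RPS26, which has none within 5 bases, and RPL36A, which has one of 10 bases, both rose from 2D to SQ.

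**Figure D3:**
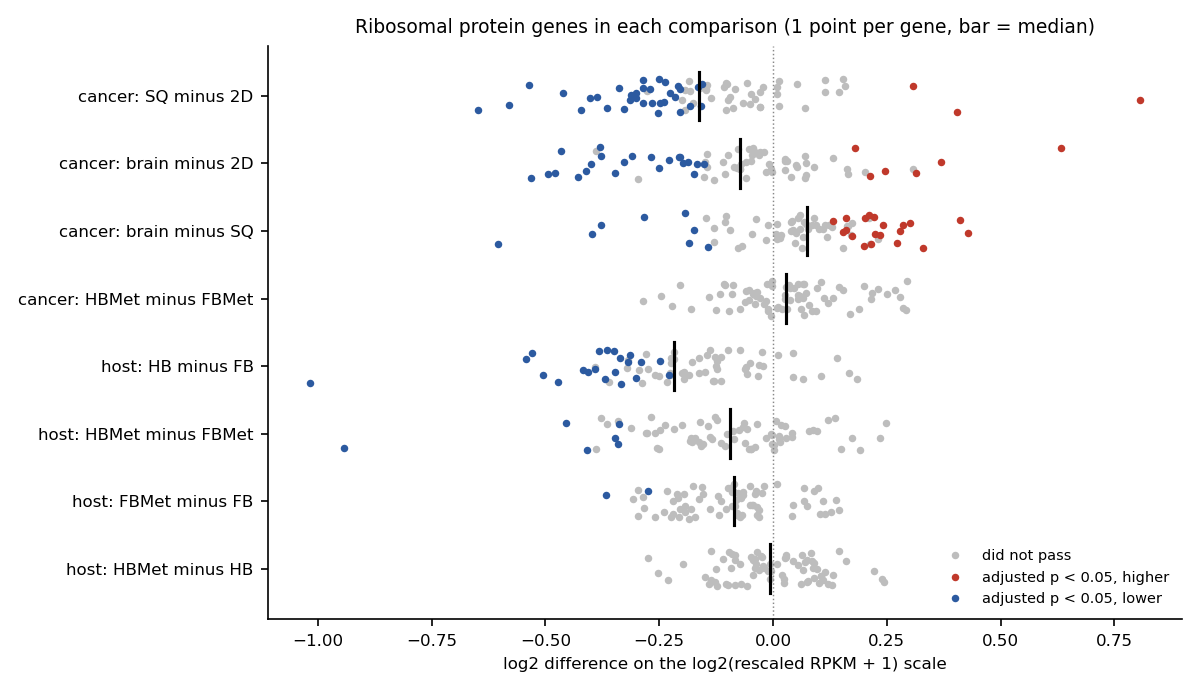
The log2 difference of each ribosomal protein gene on the log2(rescaled RPKM + 1) scale in 4 human and 4 mouse comparisons; 1 point is 1 gene (76 human or 74 mouse), coloured where the limma adjusted p was under 0.05, and the black bar is the median. Most points lie within 0.5 of 0, and Rps2 stands apart in both hindbrain against forebrain rows (-1.02 and -0.94).

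Translation factors had a larger median difference than the ribosomal proteins in each of these contrasts, which was not tested. Of 39 translation factors tested, 33 were lower and 1 higher in SQ than in 2D (median -0.41), 16 lower and 4 higher in brain than in 2D (median -0.10), and 28 higher and 2 lower in brain than in SQ (median 0.29, with 22 higher and 5 lower relative to nuclear genes). EEF1A2, an elongation factor isoform, averaged 172 ± 3.53 (SD, n = 3) in 2D, 43.5 ± 7.94 (SD, n = 4) in SQ and 13.9 ± 4.86 (SD, n = 6) in brain. EIF4EBP1, a translation repressor inhibited by mTOR, was 60.2 ± 1.37 (SD, n = 3) in 2D and 29.0 ± 2.53 (SD, n = 4) in SQ. EIF4A1, an RNA helicase of translation initiation, went the other way, with 6.87 ± 0.906 (SD, n = 3) in 2D, 19.0 ± 2.30 (SD, n = 4) in SQ and 8.45 ± 1.77 (SD, n = 6) in brain. It rose by 1.34 in SQ against 2D and was lower by a log2 difference of -1.09 in brain against SQ. Mouse Eif4a1 averaged 300 in FB and 213 in HB. Whether the low human EIF4A1 level lies in the cells or in the gene model was not tested, so its differences are uncertain. Of 52 ribosome biogenesis genes, 24 were lower and 7 higher in SQ than in 2D, 11 higher and 9 lower in brain than in 2D (median 0.02), and 27 higher and 3 lower in brain than in SQ. Relative to nuclear genes 11 rather than 7 were higher in SQ than in 2D. NPM1, the nucleolar chaperone, rose by 0.62 and MYC, an activator of ribosome production, by 0.61 in brain against SQ, while DDX47, a helicase at a low level (1.76 against 3.68), differed by -0.77. EBNA1BP2, a large-subunit assembly factor, fell by 1.44 in SQ and by 0.96 in brain against 2D, where the kinase RIOK2 rose by 0.55 and RRP12 fell by 0.53.

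Mitochondrial ribosomal proteins, which serve the separate ribosome of mitochondria, had 31 of 76 tested genes lower and 9 higher in SQ than in 2D (17 and 13 relative to nuclear genes). In brain against SQ 37 were higher and 6 lower (23 and 9 relative to nuclear genes). In brain against 2D 15 were higher and 9 lower, and leaving out any 1 culture library left 8 or 9 higher and 4 or 5 lower. These shares of 76 are below the 21.9% and 21.0% of all genes tested in that contrast. Among 22 proliferation genes all 22 were lower in SQ than in 2D (median -0.84) and all 22 higher in brain than in SQ (median 0.58), while 13 were lower and none higher in brain than in 2D (7 or 8 lower without any 1 culture library). Of the 11 ribosome genes outside the symbol rule, 7 were lower and 1 higher in SQ than in 2D, among them GNB2L1, the RACK1 scaffold of the small subunit (-0.45), and RPL22L1, a paralog of RPL22 (-0.72). The summed cycling markers MKI67, TOP2A and CCNB1 were 2344 to 2494 in 2D, 1184 to 1323 in SQ and 1956 to 2248 in the metastases; their part in the member differences was not tested.

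Hindbrain and forebrain metastases gave no ribosomal protein gene past the threshold in human reads. None of the 76 members passed in HBMet against FBMet with limma or with voom on recovered reads, 11 had an unadjusted p under 0.05, and 3.30% of all genes tested passed (1.45% higher and 1.85% lower). Without FBMet replicate 1, 3 members were higher and without HBMet replicate 3, 2 were, while 1 was lower without HBMet replicate 1 or FBMet replicate 3. The members' median log2 difference was 0.03. The widest differences were RPS10 at 0.29 ± 0.19 (SE, limma adjusted p = 0.432), RPL9 at 0.29 ± 0.10 (adjusted p = 0.111) and, in the other direction, RPL23A at -0.29 ± 0.11 (adjusted p = 0.172). RPL22, at 169 ± 14.5 (SD, n = 3) in FBMet and 145 ± 3.84 (SD, n = 3) in HBMet, had no overlap and a difference of -0.22 that did not pass (adjusted p = 0.0754), and it passed without FBMet replicate 3 (-0.29). RPL3 differed by -0.18 and RPL10 by -0.20, and the other members fixed by role by -0.07 to 0.10, none passing.

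Host ribosomal protein genes were read from mouse reads of the same brains. Of the 75 mouse members 74 passed the filter on low values, and Rpl24, at 0 to 1.03 in tumour-free and tumour-bearing brain, did not. The summed share was 1.70% ± 0.251 (SD, n = 4) in FB, 1.44% ± 0.132 (SD, n = 4) in HB, 1.58% ± 0.199 (SD, n = 3) in FBMet and 1.45% ± 0.155 (SD, n = 3) in HBMet. By library it was 1.46%, 1.52%, 1.92% and 1.92% in FB, 1.43%, 1.63%, 1.32% and 1.38% in HB, 1.75%, 1.63% and 1.37% in FBMet and 1.61%, 1.44% and 1.30% in HBMet. FB replicates 3 and 4 lay above all other brain libraries, and results that rest on them are given with and without them. The highest host levels were Rps15 (607), Rplp1 (599), Rps29 (485), Rpl4 (447) and Rps21 (409), and the lowest, after Rpl24, were Rpl29 (18.9), Rpl35a (26.1), Rpl13a (44.9) and Rpl10a (49.0).

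The presence of metastases was accompanied by few changes in these genes. In FBMet against FB, 2 of 74 members fell and none rose, where 16.0% of all genes tested fell and 14.4% rose (30.4% in either direction). Rpl27 was at 59.1, 68.4, 78.0 and 75.0 in FB and 62.4, 54.1 and 46.4 in FBMet (log2 difference -0.37 ± 0.11, SE, limma adjusted p = 0.0242), with overlapping libraries. Rpl15 was at 129, 117, 111 and 136 in FB and 111, 97.0 and 97.0 in FBMet (-0.27 ± 0.09, adjusted p = 0.0340), with the lowest FB library at the level of the highest FBMet library. Without FB replicates 3 and 4 neither passed (-0.24 and -0.27), and Rpl22, which binds some mRNAs outside the ribosome, rose (0.26, adjusted p = 0.0389). The members' median was -0.09, 0.09 without FB replicates 3 and 4, and 0.01 without FBMet replicate 3, so no direction is given for the family. The members fixed by role differed by -0.31 (Rplp2) to 0.09 (Rpl22) with all libraries, none passing. Neither call held without FBMet replicate 2 or 3 or FB replicate 4, that of Rpl27 was lost without FB replicate 3, and that of Rpl15 without FB replicate 1 and relative to nuclear genes. In HBMet against HB none of 74 passed with limma or voom, 1 had an unadjusted p under 0.05, and 3.25% of all genes tested passed (2.92% higher and 0.330% lower). The fixed members differed by -0.20 (Rplp2) to 0.24 (Rplp0, adjusted p = 0.316).

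The difference between the 2 tumour effects was tested directly and passed for none of 74 members, with none at an unadjusted p under 0.05, none with voom, and 0.456% of all genes tested passing (0.203% higher and 0.254% lower). Rpl19 (0.35) and Rps6 (0.31) had the smallest adjusted p (0.321 and 0.382). Of the mitochondrial ribosomal proteins, 56 of 76 tested fell and none rose in FBMet against FB. That count was 30 without FBMet replicate 2, 60 without FB replicate 1 and 17 without FB replicates 3 and 4. None of the 76 passed in HBMet against HB, and none passed the test of the difference between regions. Of the translation factors 16 fell and 2 rose in forebrain, and the fallen numbered 5 without FBMet replicate 2, 10 without FBMet replicate 1 or FB replicate 3, 9 without FB replicate 4 and 3 without FB replicates 3 and 4. Of 22 proliferation genes 13 rose and none fell. Mouse Top2a rose by 1.83 in forebrain and 2.27 in hindbrain. The summed microglia and macrophage markers went from 130 to 136 in FB to 315 to 404 in FBMet and from 81.2 to 113 in HB to 212 to 273 in HBMet, and the astrocyte markers from 1120 to 1180 to 1662 to 2405 in forebrain; their part in these results was not tested.

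Among the host comparisons, the 2 brain regions gave the most called members. In tumour-free hindbrain 21 of 74 members were lower than in forebrain and none higher, where 20.2% of all genes tested were lower and 32.5% higher (52.8% in either direction). The members' median was -0.22, against 0.09 over all genes. The large subunit had 14 of 45 lower and the small subunit 7 of 29. Median-of-ratios scaling, which lowered the median of all genes from 0.09 to 0.0047 on the log2 scale, gave 40 members lower and none higher, with 4037 genes of the whole table higher and 4220 lower against 5133 and 3194 before. Without FB replicate 3 the count was 8, without FB replicate 4 it was 9, without HB replicate 3 it was 8, without HB replicate 4 it was 10, without HB replicate 1 it was 11, and without FB replicate 1 it was 34. Without FB replicates 3 and 4 together 3 members were lower and 3 higher, the median was -0.04, and 45 of 74 members were below 0, against 66 of 74 with all libraries.

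Rps2, a small-subunit protein at the mRNA entry site, stood apart from the rest. Its level was 208, 212, 249 and 245 in FB and 104, 132, 105 and 109 in HB, a log2 difference of -1.02 ± 0.10 (SE, limma adjusted p = 1.15e-06). Every forebrain library exceeded every hindbrain library, and without FB replicates 3 and 4 the difference was -0.90. In tumour-bearing brain, a comparison added after the tumour-free difference was seen, Rps2 was at 215, 209 and 172 in FBMet and 117, 94.6 and 96.9 in HBMet (-0.94 ± 0.12, adjusted p = 1.23e-05). These are separate libraries from the tumour-free ones, but both differences came from 1 fit that shares its spread per gene. Human RPS2 in the cancer cells of the same regions differed by -0.03 (adjusted p = 0.916).

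Rplp1 of the stalk and Rps15 of the small-subunit head also fell in tumour-free hindbrain with and without FB replicates 3 and 4. Rplp1 was at 618, 663, 818 and 782 in FB and 482, 600, 456 and 489 in HB (-0.50 ± 0.11, SE, limma adjusted p = 0.0016), and -0.34 without those libraries. Rps15 was at 625, 630, 803 and 841 in FB and 521, 595, 464 and 497 in HB (-0.47 ± 0.11, adjusted p = 0.00191), and -0.28 without them. Rpl41 (-0.54), Rpl12 (-0.53) and Rpl29 (-0.42) fell with all libraries but did not pass without them (-0.26, -0.29 and -0.24). Rplp2, Rps19, Rpl13a, Rpl10 and Rpl3 fell by 0.37, 0.38, 0.33, 0.31 and 0.30 and likewise did not pass without them, nor without any 1 of FB replicate 3, FB replicate 4 and HB replicate 3. Of these, Rps19, Rpl10 and Rpl3 were also lost without HB replicate 1 or 4 and Rpl13a without HB replicate 1, Rps19 and Rpl13a in the fit of those groups alone, and Rpl13a with voom. Rplp0 (-0.16), Rpsa (-0.28), Rpl5 (-0.22), Rpl11 (-0.10), Rps6 (-0.06), Rpl39 (-0.06), Rpl22 (0.14) and Rps27a (0.17) did not pass on the main scale. Under median-of-ratios scaling Rplp0 (-0.25), Rpsa (-0.37) and Rpl5 (-0.31) passed. Without FB replicates 3 and 4 Rpl22 (0.31), Rps27a (0.41) and Rpl34 (0.38) were higher in hindbrain.

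In tumour-bearing brain 6 of 74 members were lower in hindbrain and none higher, where 17.8% of all genes tested were lower and 30.7% higher (48.4% in either direction). They were Rps2, Rplp1, Rps21, Rpl29, Rps15 and Rpl9, and all 6 were among the 21 lower in tumour-free hindbrain. Both contrasts came from 1 fit that shares its spread per gene. The same overlap over all genes was not counted, so the overlap is only described. In all, 53 of 74 members had a difference below 0 there. Rplp1 was at 740, 721 and 572 in FBMet and 540, 459 and 478 in HBMet (-0.45 ± 0.13, SE, limma adjusted p = 0.00949). Only Rps2 and Rplp1 passed on leaving out each library in turn; without HBMet replicate 2 or 3 or FBMet replicate 1 or 2 the count was 2. Without FBMet replicate 3 it was 16 and without HBMet replicate 1 it was 11, and 1 member was higher without FBMet replicate 1 or HBMet replicate 3. With median-of-ratios scaling 16 members were lower, the median of all genes went from 0.11 to 0.0038, and 3534 genes of the whole table were higher and 3712 lower against 4838 and 2805 before. The members fixed by role that did not pass differed by -0.39 (Rps19) to 0.25 (Rps6). In the metastasis libraries number 1 had the highest member share and number 3 the lowest in both regions. The summed oligodendrocyte markers were 2661 to 3392 in FB and 5883 to 8215 in HB, and 2539 to 3242 in FBMet and 6220 to 7578 in HBMet; their part in the lower hindbrain levels was not tested.

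**Figure D4:**
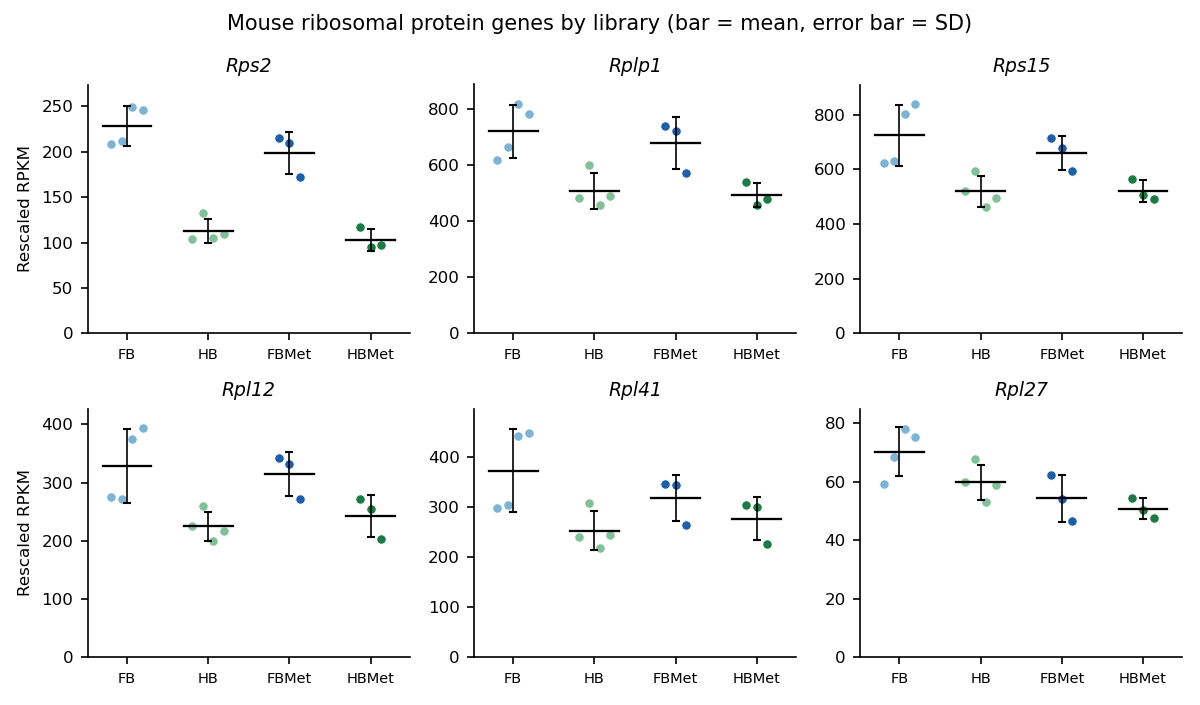
Rescaled RPKM of 6 mouse ribosomal protein genes in each library of FB, HB, FBMet and HBMet; points are libraries, bars are means and error bars SD. Rps2 lies at 94.6 to 132 in hindbrain and 172 to 249 in forebrain, with or without metastases, while Rpl12 and Rpl41 show the 2 higher FB libraries.

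Cancer cells and host could be set side by side within the metastasis libraries, where both were read from the same RNA. Of 75 members with a row in both tables, 67 had a higher level among human genes and 8 a higher level among mouse genes, and the median human to mouse ratio was 4.34. The share of human RPKM exceeded that of mouse RPKM by 4.04 to 4.97 times in each of the 6 libraries. The levels were only loosely related across the 75 genes (Pearson 0.0793 on the log2 scale, Spearman 0.184, over genes of the same libraries, which are not independent). Both tables carry their own gene models and copies, so ratios of single genes compare tables as well as cells.

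RPL24 had the largest ratio, 1668, with 659 ± 53.4 (SD, n = 6) among human genes and 0.395 ± 0.122 (SD, n = 6) among mouse genes. RPL13A (43.6), RPL29 (41.0), RPL35A (27.3) and RPL37 (18.3) followed. The smallest ratios were those of RPL17 (0.0247), RPL36A (0.113), RPS26 (0.326), RPS15A (0.697) and RPL22 (0.705). Mouse Rpl17 averaged 386 ± 35.8 (SD, n = 6) and mouse Rpl36a 117, against 9.53 ± 2.24 and 13.3 ± 2.81 (SD, n = 6) for the human genes. Whether the low human RPL17 and RPL36A levels and the low mouse Rpl24 level lie in the cells or in the gene models was not tested.

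**Figure D5:**
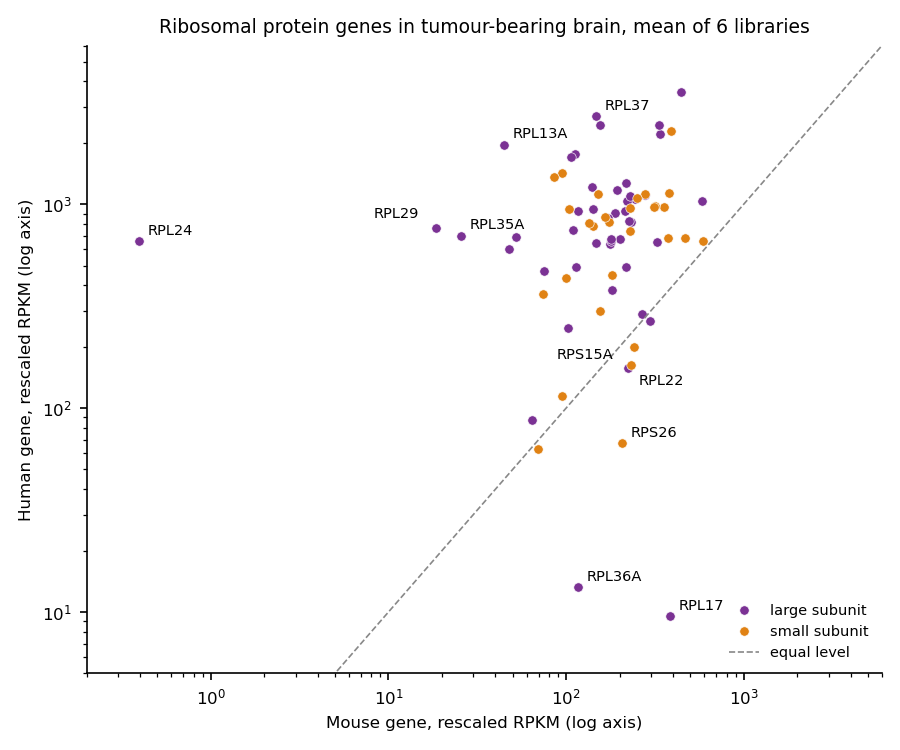
Mean level of each of 75 ribosomal protein genes in the 6 tumour-bearing brain libraries, mouse gene on the horizontal and human gene on the vertical axis (both log axes, rescaled RPKM); the dashed line marks equal levels. 67 genes lie above the line, RPL24 lies far to the left, and RPL17, RPL36A and RPS26 lie lowest below it.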

How the data were processed

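The authors deposited RPKM per gene for 21 libraries, once for human and once for mouse genes; per the submitters' processing notes the builds were hg38 (GRCh38) and mm10 (GRCm38), and the software for alignment and counting was not given in the sources used here. Total RNA was extracted with a lipid tissue kit and sequenced with standard Illumina libraries, per the labels' protocols. RPKM was rescaled to 1000000 per library and organism. Differences were tested with limma 3.58.1 (R 4.3.3; eBayes with trend and robust options, two-sided) on log2(level + 1), in 1 fit of 13 human and 1 of 14 mouse libraries, keeping genes at 1 or more in at least 3 libraries (14557 human and 15777 mouse genes). Benjamini-Hochberg adjustment covered all genes tested. The fit of 14 mouse libraries pools tumour-free brain with the more deeply read metastases.

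Whole reads were recovered from the steps of the RPKM values: 100.0% of 33975 human and 99.92% of 32644 mouse genes came out whole within 0.02, all members among them. These reads gave the depths and a voom test.

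The members, lists and tests were chosen with earlier results of these data known. Genes were named by rule: the 6 called members with the largest difference in each direction of each comparison, 15 members fixed by role, up to 3 called genes per related list, and the members with extreme levels or human to mouse ratios. Some genes that the rule selects are not reported here. The comparison of HBMet with FBMet in mouse genes was added after the data were seen.

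Same-numbered FBMet and HBMet libraries deviated together in mouse genes (correlations of 0.238, 0.383 and 0.437), so the numbers were taken as pairing those libraries there. For same-numbered FB and HB libraries the correlations were 0.186, 0.226, -0.058 and 0.365, and whether they share animals was not established. The reported tests have no block, and limma's duplicateCorrelation, which grouped both kinds of pair, served as an alternative. An SD over both metastasis groups counts paired libraries as separate. Methods were tested on simulated data. Python 3.11.15 and matplotlib 3.10.9 were used.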

Additional observations from a re-analysis of the deposited data

Results flagged for a closer look

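Dixon's test set 1 sample apart among 81 groups of 4 libraries examined (critical value 0.829), where chance gives about 1 in 20. Mouse Rps27a was at 244.85 in HB replicate 2 and at 232.62 to 234.12 in the other HB libraries.

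The mouse cells in subcutaneous tumours, which enter no comparison above, devoted 4.37% of mouse RPKM to ribosomal proteins (3.61% to 5.40% over 4 libraries), above the 1.32% to 1.92% of tumour-free brain, and 70 of 75 mouse members lay above every tumour-free brain library in every SQ library. The same count over all mouse genes was not made, so this count is not read as particular to ribosomal protein genes. The tissues differ in cell types, and no test was made.

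In brain labelled as free of tumours, FB replicate 2 held 146 reads assigned to human members and HB replicate 2 held 101, against 12 to 25 and 6 to 38 in the other libraries of their groups. The labels list the human line for these libraries too and do not say whether the mice were injected, and the source of these reads was not tested.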

How the results depend on the processing

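Counts of called members by alternative were as follows. In brain against SQ there were 10 higher and 16 lower under median-of-ratios scaling, 11 and 18 relative to nuclear genes, and 5 lower with no filter; leaving out 1 library gave 13 to 23 higher and 4 to 12 lower. In brain against 2D leaving out 1 library gave 3 to 7 higher and 14 to 25 lower. In SQ against 2D nuclear scaling gave 7 higher and 14 lower, and leaving out 1 library 2 to 4 and 21 to 39. In human HBMet against FBMet, a pseudocount of 0.1, median-of-ratios scaling and the replicate block gave 1 higher, nuclear scaling 2, and leaving out 1 library 0 to 3 higher and 0 to 1 lower; same-numbered human libraries were not paired by the correlation check (0.044, 0.049 and 0.066). In host FBMet against FB, no filter gave 0 lower, nuclear scaling 1, leaving out 1 library 0 to 3, and leaving out FB replicates 3 and 4 together, chosen after seeing the data, 1 higher and 0 lower. In host HB against FB, no filter gave 9 lower, median-of-ratios scaling 40, leaving out 1 library 8 to 34, and leaving out FB replicates 3 and 4 together 3 higher and 3 lower. In host HBMet against FBMet, no filter gave 3 lower, median-of-ratios scaling 16, the fit of those groups alone 10, the replicate block 8, and leaving out 1 library 2 to 16 lower and 0 to 1 higher. The cause was not tested. The replicate block changed no other count of members by over 1.5 times and no call of a named member. Calls of named members lost with no filter are mostly not given above. They were RPL17, RPL34, RPS2 and RPS27A (brain against SQ), RPL5, RPL9 and RPS27 (brain against 2D), and RPLP1 and RPS26 (SQ against 2D). In host genes they were Rpl15 and Rpl27 (FBMet against FB), Rpl10, Rpl13a, Rpl3 and Rps19 (HB against FB), and Rpl29, Rps15 and Rps21 (HBMet against FBMet).

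The summed share relative to nuclear genes was 8.16% in 2D, 7.80% in SQ, 7.55% in FBMet and 7.71% in HBMet. As a share of recovered reads it was 5.46%, 4.71%, 4.96% and 5.04% there, and 0.871% in FB, 0.728% in HB, 0.807% in FBMet and 0.750% in HBMet for mouse genes. Leaving out 1 library moved no share by more than its SD. Dropping 1 value cannot move a mean further than that in groups of this size, so the check leaves the stability of the shares untested.

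Of 3136 values of named members under an alternative, 137 lost their call, 37 gained one and none reversed. The 3136 include members not called on the main scale, which could not lose a call. Of the calls made on the main scale, nuclear scaling kept 59 and lost 10. Median-of-ratios scaling kept 61 and lost 8, and no filter kept 51 and lost 18. Depth limits the human genes of the metastases most, where libraries held 3579907 to 6897852 human reads, and there the members at the lowest levels, RPL17 and RPL36A.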
